A study of Homo sapiens with 6 samples.

Results

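The small nuclear RNAs (snRNAs) U1, U2, U4, U5 and U6 of the spliceosome and U7 of histone mRNA processing were followed in total RNA of human embryonic stem cells. They are the 6 entries with these names in a deposited table of repeat counts, out of 15600 entries, and were taken by name alone. All 6 were present and passed the filter on low counts. The 6 libraries came from H9, a long-established line of such cells, with 2 per group. The RSeT+DT cells were kept in RSeT, a commercial medium for a naive-like state, and received 10 nM DZNep and 5 nM TSA until collection 48 hours later. The RSeT cells were kept in RSeT medium without these agents, and the primed cells in mTeSR medium. DZNep inhibits S-adenosylhomocysteine hydrolase and lowers the histone mark H3K27me3, and TSA inhibits histone deacetylases. The libraries belong to a study of LINE1 and PRC2 in the repression of an 8-cell state, per its title. All groups share this single line. Since no label ties a replicate to its own culture, each p-value rests on a spread that may be technical.

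In the spliceosome, U1 snRNA pairs with the 5′ splice site and U2 snRNA with the branch site of the intron. U4 arrives base-paired to U6 in a particle that also holds U5. U4 is then released, U5 holds the exons together, and U6 pairs with the 5′ splice site and builds the catalytic core. U7 takes no part in splicing: its 5′ end pairs with a downstream element of replication-dependent histone pre-mRNAs and directs the cut that forms their 3′ ends. U1, U2, U4, U5 and U7 are made by RNA polymerase II and carry a ring of Sm or Sm-like proteins, whereas U6 is made by RNA polymerase III.

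The table has a single entry per snRNA name while the genome holds many copies of each, so functional copies of U1, U2, U4 and U7 are shown to make plain which short RNA such an entry is named for. The sequences are those of GENCODE 29 on GRCh38, written 5′ to 3′ as DNA. Capitals mark the stretch of U1 that pairs with the 5′ splice site, the stretch of U2 that pairs with the branch site, the Sm site of U4 and the Sm-like site of U7.
RNU1-1: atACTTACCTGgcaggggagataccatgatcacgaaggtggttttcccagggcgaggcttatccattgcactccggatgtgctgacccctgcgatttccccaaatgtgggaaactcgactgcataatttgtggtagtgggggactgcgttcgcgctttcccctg
RNU2-1: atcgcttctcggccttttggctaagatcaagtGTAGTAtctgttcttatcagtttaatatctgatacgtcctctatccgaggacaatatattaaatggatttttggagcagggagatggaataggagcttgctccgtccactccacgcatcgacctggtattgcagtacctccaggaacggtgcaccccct
RNU4-1: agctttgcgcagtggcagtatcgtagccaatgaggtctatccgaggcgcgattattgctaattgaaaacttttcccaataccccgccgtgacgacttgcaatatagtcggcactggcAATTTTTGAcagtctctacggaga
RNU7-1: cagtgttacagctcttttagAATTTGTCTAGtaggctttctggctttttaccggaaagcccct

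These copies lie at chr1:16514122-16514285 on the minus strand (RNU1-1), chr17:43233787-43233977 minus (RNU2-1) and chr12:120293097-120293237 minus (RNU4-1). RNU7-1 lies at chr12:6943816-6943878 on the plus strand. Each is annotated as a snRNA gene of its own, with lengths of 164, 191, 141 and 63 bases in the order printed.

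GENCODE 29 lists 1276 loci named for U6, 149 for U7, 132 for U1, 90 for U4, 71 for U2 and 31 for U5, in all 1749. They were taken by gene symbols built like RNU1-1, with or without a final P, so snRNA loci under other symbols are left out. Only a few of the 1749 have a symbol without the final P used for pseudogenes, namely 15 U1 loci, 5 U5, 5 U6, 2 U4, 1 U2 and 1 U7 locus. The copies have drifted: the median identity to the copy printed above was 82.9% for U1, 79.4% for U7, 77.3% for U4 and 76.4% for U2. At least 95% identity was found in 12 U1 loci (9.09%), 3 U2, 2 U4 and 1 U7 locus. For U2 these are more loci than lack the final P, so the symbol alone need not tell which copies are functional.

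The marked stretches were searched on the RNA strand of each locus counted above for these 4 families. ACTTACCTG was found in 32.6% of U1 loci, GTAGTA in 50.7% of U2 loci, AATTTTTGA in 37.8% of U4 loci and AATTTGTCTAG in 57.0% of U7 loci. Among 6595 other GENCODE transcripts of 60 to 200 bases, these strings were held by 0.182%, 1.56%, 0.136% and 0.0607% in the same order. Many copies also lie within the span of another annotated gene, 46.2% for U1 and 56.3% to 64.5% for the other families. On the strand of that gene the order differed, with 39.4% of all loci for U1, 36.7% for U4, 35.6% for U7 and 32.4% for U2. Reads of such a host transcript can be counted under the snRNA name, and the repeat annotation, the strand setting and the handling of reads with many matches are, in the sources used here, not given.

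**Figure D1:**
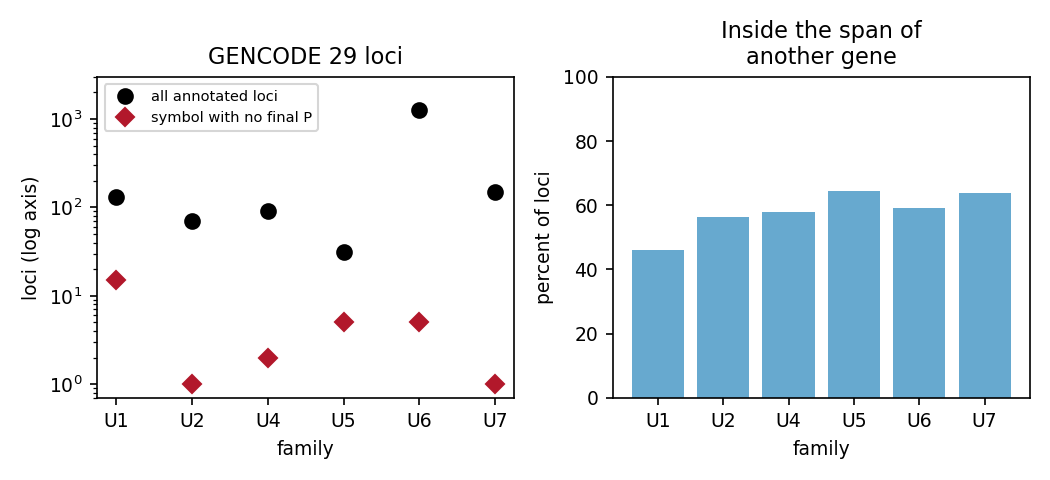
Annotated snRNA loci by family in GENCODE 29, taken by gene symbol. Left, the number of loci on a log axis, all (black) and those whose symbol has no final P (red); right, bars from 0 give the percentage of loci inside the span of another gene. U6 has 1276 loci with 5 lacking the final P, U1 has 132 with 15.

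Depth allowed every entry to be counted in every library. Repeat counts summed to between 11520770 and 38312112 per library. U1 had 76756 to 216469 counts, U2 2243 to 7242, U4 1791 to 6228, U6 983 to 4297, U5 377 to 1435 and U7 112 to 585. U7 thus carries the largest counting error. In bulk RNA, fewer cells with an RNA and less of it per cell cannot be told apart. The states of the cells were checked on repeats, since the files hold no genes: LTR5_Hs, an LTR active in naive cells, was higher by 3.86 in RSeT+DT and by 3.66 in RSeT than in primed cells on the log2 scale. HERVH-int and LTR7, a retrovirus and its LTR that are active in pluripotent cells, were both called higher in each of the 3 comparisons. Of 5 LTRs used in placenta, 1 was higher and 3 were lower in RSeT+DT than in RSeT, and 2 were higher and 1 lower in RSeT than in primed cells. Of 3 repeats tied to the 8-cell stage, 0 were higher and 2 lower in RSeT+DT than in RSeT, and 3 were higher in RSeT than in primed cells. Of all 1232 tested features other than simple repeats, 6.41% were higher and 52.6% lower in RSeT+DT than in RSeT. In RSeT against primed cells, 51.1% of them were higher and 8.69% lower. A fall in the first comparison and a rise in the second were thus common, and do not by themselves mark a cell state.

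U1 made up most of the snRNA signal. It took 93.3 ± 0.034% of the counts of the 6 entries in RSeT+DT cells, 91.6 ± 0.0039% in RSeT cells and 92.6 ± 0.29% in primed cells (mean ± SD, n = 2 each). The 6 entries together stood at 8452 and 7143 CPM in RSeT+DT, 6167 and 5413 CPM in RSeT, and 10620 and 8199 CPM in primed cells, in deposited CPM, which are counts scaled to the sum of the listed repeats of a library. Both RSeT libraries lay below all other libraries, and RSeT+DT overlapped primed cells. The repeat total behind each CPM moves with the groups too: HERVH-int alone held 116700 ± 2667 CPM in RSeT+DT, 74530 ± 1537 CPM in RSeT and 25170 ± 1902 CPM in primed cells (SD, n = 2 each). 7SLRNA held more, at 202200 ± 14800, 144100 ± 4390 and 213200 ± 11180 CPM in the same order, and like U1 it was lowest in RSeT.

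The shares and CPM above take no account of the length of an RNA. For U1, U2, U4 and U7, levels were also set side by side per kilobase of the printed copy. In RSeT+DT cells the deposited CPM per kilobase was 44360 ± 5283 for U1, 1249 ± 207 for U4, 1120 ± 142 for U2 and 161.1 ± 35.3 for U7 (SD, n = 2). In RSeT cells the order was U1 at 32350 ± 2980, U4 at 995.5 ± 223, U2 at 958.8 ± 43.8 and U7 at 238.0 ± 6.20. In primed cells it was U1 at 53110 ± 9815, U4 at 1714 ± 462, U2 at 1496 ± 209 and U7 at 252.6 ± 22.8. U1 thus stood first and U7 last of the 4 in each group, and U4 and U2 overlapped in each. These figures divide the count under a name by the length of a single copy, so they rank entries and do not give molecules per cell.

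U1, which pairs with the 5′ splice site, stood at 7888 and 6663 CPM in RSeT+DT, 5651 and 4959 CPM in RSeT, and 9848 and 7571 CPM in primed cells. RSeT was the low group without overlap, while RSeT+DT and primed libraries overlapped. U2, its partner at the branch site, stood at 233.2 and 194.7 CPM in RSeT+DT, 189.0 and 177.2 CPM in RSeT, and 313.9 and 257.4 CPM in primed cells. Again the RSeT libraries were the lowest, and for U2 the RSeT+DT libraries also lay below both primed libraries.

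U4, which carries U6 into the spliceosome, stood at 196.7 and 155.5 CPM in RSeT+DT, 162.6 and 118.2 CPM in RSeT, and 287.8 and 195.7 CPM in primed cells. RSeT lay below primed cells, but RSeT+DT overlapped both other groups. U5, the RNA that holds the exons, stood at 40.27 and 32.73 CPM in RSeT+DT, 37.46 and 30.48 CPM in RSeT, and 50.48 and 43.22 CPM in primed cells. Its RSeT+DT and RSeT libraries overlapped, and both groups lay below primed cells.

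U6, the catalytic RNA, went another way, at 85.05 and 85.33 CPM in RSeT+DT, 112.2 and 112.5 CPM in RSeT, and 100.2 and 117.0 CPM in primed cells. The RSeT+DT libraries were the lowest, and RSeT lay within the range of the primed libraries. U7, the histone-processing RNA, stood at 8.574 and 11.72 CPM in RSeT+DT, 15.27 and 14.72 CPM in RSeT, and 16.93 and 14.90 CPM in primed cells. The RSeT+DT libraries were again below all others, and RSeT and primed cells overlapped.

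**Figure D2:**
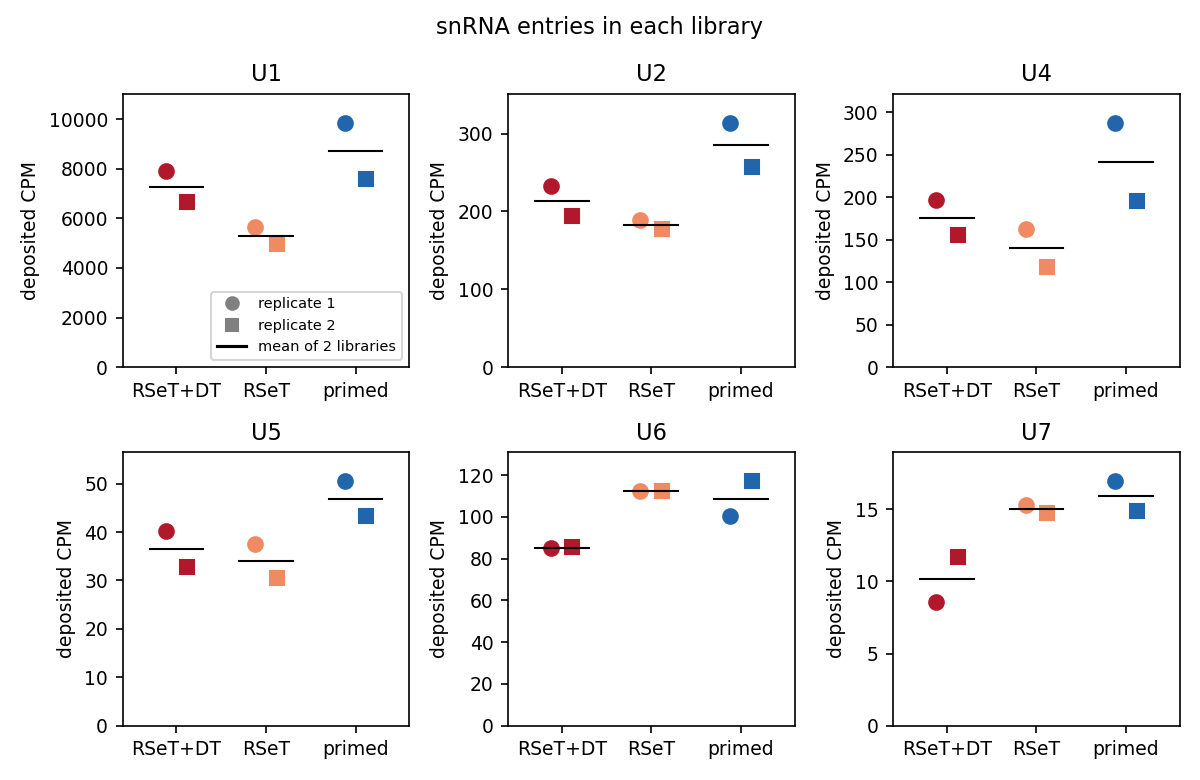
Deposited CPM of each snRNA entry, with an axis from 0, in RSeT+DT, RSeT and primed cells (circle, replicate 1; square, replicate 2; line, mean of 2 libraries). For U1, U2, U4 and U5 the RSeT mean is the lowest, with U1 at 5305 CPM, whereas for U6 and U7 the RSeT+DT mean is the lowest, with U6 at 85.19 CPM.

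In RSeT+DT against RSeT cells, the test of the added DZNep and TSA, U1, U2 and U4 rose and U6 and U7 fell. Changes were fitted to the counts of all 4665 tested features with edgeR's quasi-likelihood test and TMM factors, with Benjamini-Hochberg adjustment and a threshold of 0.05. U1 rose by 0.61 on the log2 scale (SE 0.085, adjusted p = 1.76e-06), a 1.53-fold difference. U2 rose by 0.38 (SE 0.076, adjusted p = 0.000231) and U4 by 0.47 (SE 0.13, adjusted p = 0.0051). U5 had a log2 fold change of 0.24 (SE 0.11) that did not pass (adjusted p = 0.073). U6 fell by 0.24 (SE 0.054, adjusted p = 0.000639) and U7 fell by 0.43 (SE 0.14, adjusted p = 0.0138).

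These 3 rises and 2 falls stand against 25% of all tested features that rose and 17.4% that fell, 42.4% in all. With simple repeats set aside, 6.41% of the remaining 1232 features rose and 52.6% fell, so a fall was the common outcome there and a rise the rare one. The median log2 fold change was 0.31 over the 6 entries, 0.027 over all tested features and -0.22 over interspersed repeats, the mobile elements scattered through the genome. U6 lay at about the median of the interspersed repeats.

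The calls differ in how they depend on scaling and on single libraries. With interspersed scaling, which sets the libraries level on interspersed repeats and shifts log2 fold changes by 0.22 in the median, U1, U2, U4 and U5 rose (0.83, 0.60, 0.69 and 0.46), and U6 (-0.025) and U7 (-0.21) did not pass. In DESeq2 the SE of U1 was larger, at 0.231, and its rise of 0.57 passed with an adjusted p of 0.0315. U2 (0.34, adjusted p = 0.134) and U4 (0.44, adjusted p = 0.302) did not pass there. U4 did not pass without RSeT+DT replicate 1 (0.26) or RSeT replicate 2 (0.27), and U7 did not without RSeT+DT replicate 1 (-0.225) or RSeT replicate 1 (-0.38). U2 stayed called but stood at 0.22 without RSeT+DT replicate 1 and with library totals, and U4 at 0.75 without RSeT replicate 1. With library totals U6 fell by 0.399. U5 passed without RSeT+DT replicate 2 (0.41), without RSeT replicate 1 (0.43) and without either primed replicate (0.25 without replicate 1 and 0.24 without replicate 2).

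In RSeT against primed cells, which sets the naive-like culture against the primed one, the 4 RNAs that are not U6 or U7 fell. U4 fell by 0.64 on the log2 scale (SE 0.13, adjusted p = 0.000154, edgeR), U1 by 0.59 (SE 0.085, adjusted p = 3.07e-06), U2 by 0.51 (SE 0.074, adjusted p = 2.98e-06) and U5 by 0.31 (SE 0.098, adjusted p = 0.0108). For U1 this is a level 0.666 times that of primed cells. U6 rose by 0.19 (SE 0.051, adjusted p = 0.00452), and U7 had a log2 fold change of 0.044 (SE 0.12) that did not pass (adjusted p = 0.792).

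The 4 falls and 1 rise stand against 23.8% of all tested features that fell and 22.8% that rose, 46.6% in all. With simple repeats set aside, the shares were 8.69% and 51.1%. The medians were -0.41 over the 6 entries, -0.030 over all tested features and 0.16 over interspersed repeats, and U6 again lay at about the last of these. All 4 falls were called with library totals (U1 -0.715, U2 -0.64, U4 -0.77, U5 -0.45) and with interspersed scaling (-0.75, -0.67, -0.80, -0.475). The rise of U6 was not called with library totals (0.052), with interspersed scaling (0.024) or without primed replicate 1 (0.10). Without primed replicate 1 the falls of U1, U2 and U4 were still called but smaller, at -0.35, -0.33 and -0.30, and U4 stood at -0.43 without RSeT replicate 2. U5 did not pass without RSeT replicate 2 (-0.17) or primed replicate 1 (-0.16) and stood at -0.50 without RSeT replicate 1. DESeq2 called U1 (-0.56, SE 0.231, adjusted p = 0.0466) and U2 (-0.486, SE 0.189, adjusted p = 0.0337). It called neither U4 (-0.63, adjusted p = 0.157) nor U5 (-0.305, adjusted p = 0.285).

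RSeT+DT against primed cells shares its libraries with both comparisons above. U7 was the one entry past the threshold, with a fall of 0.38 on the log2 scale (SE 0.14, adjusted p = 0.0316, edgeR), against 20.6% of all tested features that fell and 25.1% that rose, 45.8% in all. With simple repeats set aside, 32.9% fell and 25.1% rose. U1 stood at 0.025 (SE 0.085), U2 at -0.13 (SE 0.076), U4 at -0.18 (SE 0.13), U5 at -0.075 (SE 0.11) and U6 at -0.059 (SE 0.056), none of them called. Scaling decides this comparison: all 6 entries were lower with library totals, from -0.26 for U1 to -0.665 for U7, and none was called with interspersed scaling. U7 did not pass without RSeT+DT replicate 1 (-0.18) and without primed replicate 1 (-0.24), and, at -0.37 and -0.36, without RSeT replicate 1 and replicate 2. U1 was called higher without RSeT+DT replicate 2 (0.19) or primed replicate 1 (0.27) and lower without primed replicate 2 (-0.17). U2 and U4 were called lower without RSeT+DT replicate 1 (-0.29 for U2 and -0.38 for U4) and without primed replicate 2 (-0.28 for U2 and -0.44 for U4).

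**Figure D3:**
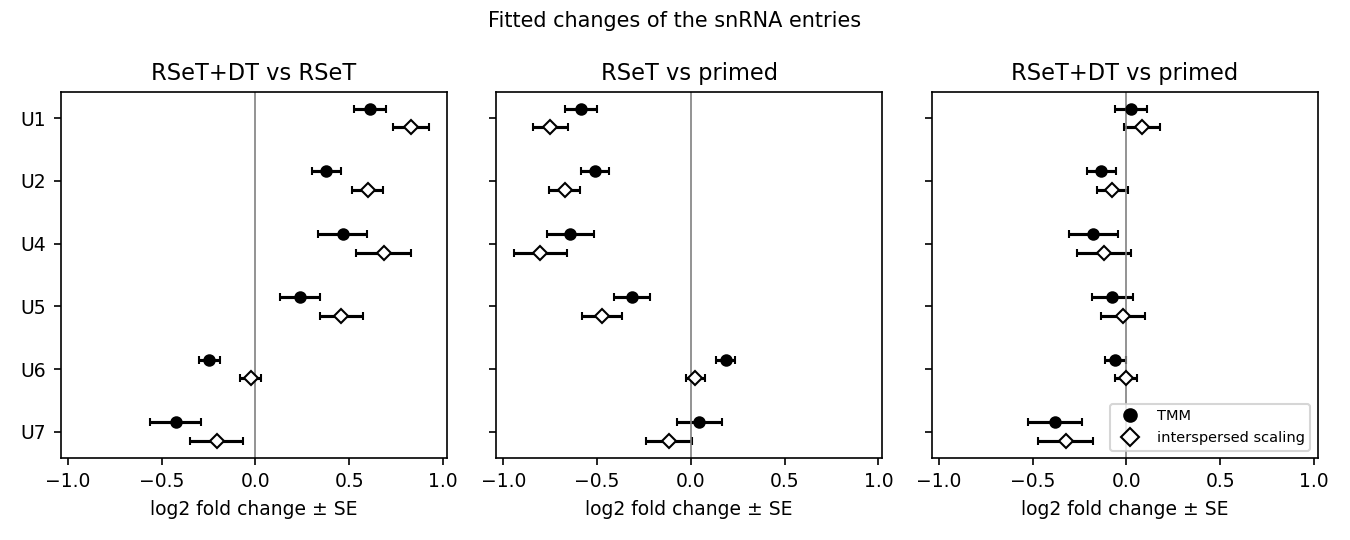
Log2 fold change ± SE of each snRNA entry in 3 comparisons, fitted with edgeR with TMM factors (filled circles) and with interspersed scaling (open diamonds). U1, U2, U4 and U5 lie right of 0 in RSeT+DT against RSeT and left of 0 in RSeT against primed cells under both scalings, while U6 under interspersed scaling lies at -0.025 and 0.024.

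Ratios of counts between the entries of a library need no scaling between libraries. The log2 ratio of U6 to U1 was -6.54 and -6.29 in RSeT+DT, -5.66 and -5.46 in RSeT, and -6.62 and -6.02 in primed cells. The RSeT libraries were the highest, by 0.85 over RSeT+DT and 0.76 over primed cells in the means, and the other groups overlapped. U7 to U1 stood at -9.85 and -9.15 in RSeT+DT, -8.53 and -8.40 in RSeT, and -9.18 and -8.99 in primed cells, with RSeT again above every other library. An exact two-sided permutation test on groups of 2 cannot go below p = 0.333, so these ratios are given without a test.

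U4 and U6 act as a base-paired duplex, but the counts under these 2 names need not come from the duplex RNAs. Of 1276 annotated U6 loci only 5 lack the final P, and reads of host transcripts can be counted under a name. How much of the U6 count such copies gave was not tested. The 2 entries did not keep a fixed ratio. The log2 ratio of U4 to U6 was 1.21 and 0.87 in RSeT+DT, 0.54 and 0.071 in RSeT, and 1.52 and 0.74 in primed cells. RSeT lay below the other groups, by 0.73 against RSeT+DT and 0.83 against primed cells in the means. The log2 ratio of U4 to U1 was -5.33 and -5.42 in RSeT+DT, -5.12 and -5.39 in RSeT, and -5.10 and -5.27 in primed cells. RSeT overlapped both other groups, while RSeT+DT lay below primed cells, with a difference of -0.19 in the means. U2 to U1 was lower in RSeT+DT (-5.08 and -5.10) than in RSeT (-4.90 and -4.81), and U5 to U1 likewise (-7.61 and -7.67 against -7.24 and -7.35). Both ratios lay lower in each RSeT+DT library than in either RSeT library.

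**Figure D4:**
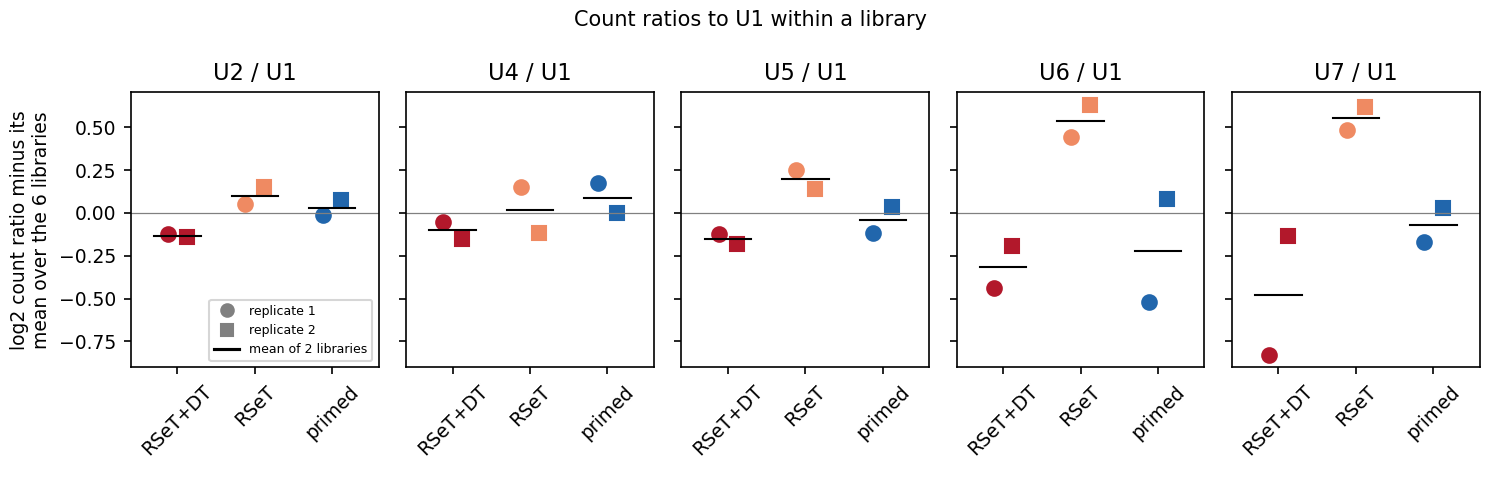
Log2 count ratio of each snRNA entry to U1 within a library, minus its mean over the 6 libraries, in RSeT+DT, RSeT and primed cells (circle, replicate 1; square, replicate 2; line, mean). For U6 and U7 both RSeT libraries lie above all others, with mean differences from RSeT+DT of 0.85 and 1.03.

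U1, U2, U4 and U5 also varied together between replicates. Replicate 1 was above replicate 2 in all 3 groups for each of them, by 0.24, 0.19 and 0.38 for U1 and by 0.34, 0.46 and 0.56 for U4 in RSeT+DT, RSeT and primed cells on the log2 scale of the deposited CPM. This held for 5.71% of the 1139 entries other than simple repeats with a mean count of at least 50. It did not hold for U6, at -0.0048, -0.0037 and -0.22, nor for U7, at -0.45, 0.053 and 0.18. The snoRNA-type entry U3 had the same order, at 0.43, 0.48 and 0.68. Of the other snoRNA-type entries, U8 and U17 had this order too, and U13, U13_ and U14 did not. It was also found for 7SLRNA, 7SK and the Y RNA HY5, but not for BC200 or the Y RNAs HY1, HY3 and HY4. The order was thus not particular to the snRNAs. In the primed cells, replicate 1 also held more ribosomal RNA, with LSU-rRNA_Hsa at 6177 CPM against 1203 CPM in replicate 2, but in RSeT+DT it held less, at 6559 against 11210 CPM. The part of these differences in the snRNA results was not tested.

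The entries nearest in pattern were sought among 1138 others that are not simple repeats and have a mean count of at least 50, by the root mean square difference of centred log2 TMM-scaled CPM over the 6 libraries. For U1 the nearest were MER11B (0.091), U2 (0.11) and 7SLRNA (0.12), followed by U4 and U5. For U2 they were U5 (0.094), U17 (0.10) and U1 (0.11), for U4 U1 (0.125), U2 (0.15) and UCON31 (0.15), and for U5 U17 (0.082), U2 (0.094) and REP522 (0.11). The 4 RNAs were thus among the 15 nearest entries of each other. For U6 the nearest were the interspersed repeats MER34C2 (0.034), LTR33A (0.035) and Charlie10 (0.036), and U1 came 1055th. For U7 they were UCON107 (0.048), MLT1H1-int (0.067) and MER75B (0.071), and U6 came 507th, so U6 and U7 were not near each other.

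Other small RNAs were set beside the snRNAs as lists. Calls in each list stand against 25% of all tested features higher and 17.4% lower in RSeT+DT against RSeT. For RSeT against primed cells these shares were 22.8% and 23.8%. With simple repeats set aside they were 6.41% and 52.6% in the former, and 51.1% and 8.69% in the latter. The snoRNA-type entries, named like the snRNAs but acting in the processing or modification of ribosomal RNA, had 4 of 6 higher and 2 lower in RSeT+DT than in RSeT. U3 rose by 0.87 (SE 0.15), U8 by 0.67 (SE 0.14), U13 by 0.34 (SE 0.095) and U17 by 0.20 (SE 0.074), while U14 fell by 0.52 (SE 0.13) and U13_ by 0.46 (SE 0.091). Of the same 6, 3 were called higher in RSeT than in primed cells and 1 lower, namely U17 (-0.30), and U3 stood at 0.051 without a call. U3 rose in RSeT+DT like U1, but it did not share the fall of U1 in RSeT.

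U6 shares the build of its promoter with 7SK and the Y RNAs. Of these 5 entries, 1 was called higher and 1 lower in RSeT+DT than in RSeT, and 2 were called lower and 0 higher in RSeT than in primed cells. 7SK, an inhibitor of transcription elongation, rose by 0.70 (SE 0.028) and then stood lower by 0.41 (SE 0.028) in RSeT than in primed cells, opposite in sign to U6 in both. The Y RNA HY1 fell in both, by 0.26 (SE 0.070) and by 0.18 (SE 0.062). HY3, HY4 and HY5 were not called in either, with HY5 at 0.521 to 1.30 CPM over the 6 libraries.

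The list of other polymerase III RNAs had 68 entries, mostly transfer RNAs taken by name, of which 59 were tested. In RSeT+DT against RSeT, 5 were called higher and 16 lower, and in RSeT against primed cells 39 higher and 4 lower. With simple repeats set aside, 52.6% of all tested features fell in the first comparison and 51.1% rose in the second. The main direction of the list was thus that of most such features. Median log2 fold changes of the 59 were -0.27 and 0.52. Among those called higher in both comparisons were tRNA-Ser-TCA(m) and tRNA-Leu-TTA(m). Their (m) may stand for mitochondrial, so not every listed entry need be a polymerase III RNA. 7SLRNA, which scaffolds the signal recognition particle, went with U1 instead, at 0.64 (SE 0.040) and -0.43 (SE 0.040), and 5S ribosomal RNA was not called, at -0.081 and 0.052. Both large ribosomal RNA entries rose in RSeT+DT against RSeT, with a median of 1.44 (SE 0.35 for LSU-rRNA_Hsa and 0.50 for SSU-rRNA_Hsa). Neither was called in RSeT against primed cells. Their replicates lay far apart, with SSU-rRNA_Hsa at 5134 and 465.3 CPM in primed cells and 4225 and 9654 CPM in RSeT+DT. The missing call thus does not show equal levels. U11, U12, U4atac and U6atac of the minor spliceosome had no entry under these names, so they could not be analysed.

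**Figure D5:**
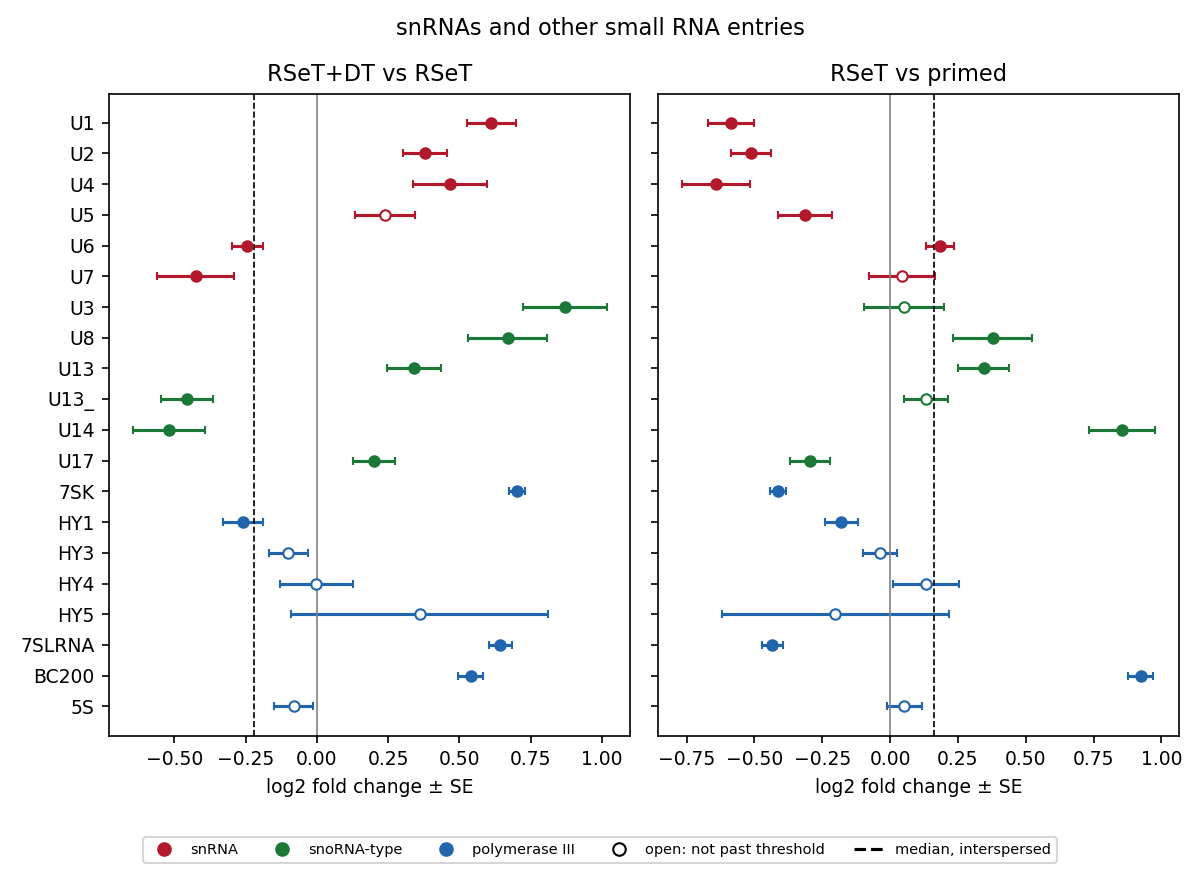
Log2 fold change ± SE (edgeR, TMM) of the snRNA entries (red), snoRNA-type entries (green) and polymerase III entries (blue) in RSeT+DT against RSeT and RSeT against primed cells; filled points passed the threshold, and the dashed line is the median of interspersed repeats, at -0.22 and 0.16. U6 lies near that line in both panels, and U1 lies near 7SLRNA, at 0.61 and 0.64 in the left panel.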

How the data were processed

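Per the labels' protocols, a stranded kit for total RNA was used. Raw counts per repeat name were deposited by the authors, with Trimmomatic 0.39, STAR 2.7.8a, featureCounts and Subread 2.14.2 and the build GRCh38 named in the submitters' processing notes without roles. The deposited CPM table holds 7383 entries, and its values equal the counts scaled to the sum of all listed counts, within 0.00442 CPM. Counts were tested with edgeR 4.0.16 (R 4.3.3) in 1 fit of all 6 libraries, group as the only term, TMM factors, and filterByExpr (at least 10 counts, total 15). The SE is the log2 fold change divided by the square root of the F statistic, and the fit had 3 residual degrees of freedom. The quasi-likelihood test moderates the spread of each feature with that of the others, so its p-values do not rest on these 3 alone. The fit was tested on simulated data. DESeq2 1.42.0 and limma 3.58.1, the second on log2(deposited CPM + 1) or log2(deposited CPM + 0.1), were alternatives. Interspersed scaling took TMM factors and totals from interspersed repeats alone. No 2 replicates could be one library deposited again, since chi-square over its degrees of freedom was 6.04 to 31. Identity of loci was computed with edlib 1.3.9.post1 (edit distance over the longer length). All 6 snRNAs and the listed small RNAs were named whatever their values, with the 3 nearest entries of each. Some items of U5 and U6 are not reported here. The entries, lists and alternatives were chosen with earlier results of these data known.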

Additional observations from a re-analysis of the deposited data

How the results depend on the processing

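Of 6 log2 fold changes under 17 alternatives, 87 of 102 values kept their direction and call in RSeT+DT against RSeT, 86 in RSeT against primed cells and 53 in RSeT+DT against primed cells. A further 6 and 10 values in the last 2 comparisons stayed uncalled with the other sign. In RSeT+DT against RSeT, 3 entries were called higher, against 1 in DESeq2, 2 with limma at the pseudocount 0.1, where U4 did not pass (0.335, adjusted p = 0.0571), and 0 with a minimum change of 2-fold, and 2 to 4 with a library left out. The 2 called lower became 0 with interspersed scaling and 0 with the 2-fold minimum, and 1 to 2 with a library left out. In RSeT against primed cells, the 1 entry called higher became 0 with library totals, totals of the deposited CPM, interspersed scaling, limma at either pseudocount and the 2-fold minimum, and 0 to 1 with a library left out. The 4 called lower became 2 in DESeq2 and 0 with the 2-fold minimum, and 3 to 4 with a library left out. In RSeT+DT against primed cells, 0 were called higher, and 0 to 1 with a library left out. The 1 called lower became 6 with library totals, with totals of the deposited CPM and with limma at either pseudocount, 3 without a filter, 2 with a mean count of at least 50, and 0 with interspersed scaling, DESeq2, only the groups compared or the 2-fold minimum, and 0 to 4 with a library left out. There U1, at 0.025, turned to -0.26 with library totals, -0.26 with totals of the deposited CPM, -0.252 with limma at either pseudocount, and -0.169 to 0.266 with a library left out. Library totals, which skip TMM, shifted the median of all features by -0.154, -0.131 and -0.285 in the 3 comparisons in the order above. The share of called features that were higher was then 40.6%, 30.8% and 25.4%, against 59%, 48.9% and 54.9% with TMM. With interspersed scaling it was 86%, 27.5% and 61.5%. Over 2942 features with a mean count of at least 50, differences between replicates correlated at 0.092, -0.0433 and -0.00157 between groups. Replicate numbers thus did not pair the libraries over these features as a set. That does not settle pairing for U1, U2, U4 and U5, whose replicate 1 was above replicate 2 in all 3 groups. The fit with the replicate number as a block called 3 entries lower in RSeT+DT against primed cells and added U5 (0.26) in RSeT+DT against RSeT. In the latter it lowered the SE of U1 from 0.0852 to 0.0385 and of U4 from 0.13 to 0.0449. Causes of these changes were not tested. At 112 to 585 counts per library, U7 was the entry most limited by depth.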
